A study of Rattus norvegicus with 18 samples.

Results

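The comparison described here set mesenchymal stromal cells (MSCs) of old rats against those of young rats at passage 30 (P30), with 3 arrays a group. The cells were flushed from the bone marrow of male Sprague Dawley rats, kept for their adherence to plastic and grown in culture for 30 passages. Rats of 3 weeks gave the young group (yMSCs) and rats of 12 months the old group (aMSCs), and neither group carried a transgene or received an agent. Of 22018 genes on the rat bead array, 9531 were detected in at least 1 of the 6 groups of the series, which also holds passages 2 and 100. The members are the 8196 of these 9531 genes that were detected in yMSCs P30 or in aMSCs P30, where detected means a mean detection p, the scanner software's p for a probe against its negative control beads, of at most 0.01 over the 3 arrays of the group. A symbol names 5978 of the members, and the remaining 2218 are known by their probe only.

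The study's methods speak of long-term cultures of young and old cells without saying how the 3 arrays of a group were drawn from them. The age of the donor and the history of a single culture therefore cannot be told apart, and the p-values below may measure only the spread between these arrays, which may be technical. In bulk RNA of a culture, fewer cells of a type and less RNA per cell also cannot be told apart.

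MSCs are adherent cells of the marrow stroma that can be turned into bone, fat and cartilage cells in culture. They lay down and remodel collagen and elastic matrix, and they pass signals to blood-forming and immune cells through secreted factors and surface proteins. Prolonged passage is known to change such cultures, and cells of a late passage are limited as a model of the donor.

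The question was which genes differed between aMSCs and yMSCs at P30 and which of the differences were present on each of the 3 aMSCs arrays. All levels below are background-corrected and quantile-normalized signals on a log2 scale, so that a difference of 1 is a 2-fold difference, and each probe was set only against itself. A gene was called when limma, in 1 fit over all 18 arrays of the series, gave a Benjamini-Hochberg adjusted p under 0.05 over the 9531 genes and the groups differed by at least 1.5-fold. Of the 8196 members, 1635 were called (19.9%), 757 higher in aMSCs (9.24%) and 878 lower (10.7%), with a median fold of 1.98. The median log2 difference over all members was 0.03. Below, a rise or a fall means a higher or a lower signal in aMSCs than in yMSCs, not a change over passages. A called gene was said to hold on all 3 aMSCs arrays when each of them lay beyond every yMSCs array and was at least 1.5-fold from the yMSCs mean. This was so for 829 genes (10.1%), 419 of them higher (5.11%) and 410 lower (5.00%). A lack of overlap given below for a gene that held is part of this definition. A further 690 called genes (8.42%) passed the fold on aMSCs replicates 1 and 2 but not on replicate 3, and 116 had another pattern. The count of calls was 1080 without aMSCs replicate 1, 1058 without replicate 2, 2241 without replicate 3 and 1470 to 1590 without 1 of the yMSCs arrays. Without any test, 2546 members (31.1%) had no overlap between the 3 arrays of each group.

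The arrays of a group were not equally alike. Over the 9531 tested genes, aMSCs P30 replicates 1 and 2 correlated at r = 0.994 with each other, while replicate 3 correlated with them at 0.961 and 0.969 and with the yMSCs P30 arrays at 0.949 to 0.969. In the young group replicates 2 and 3 correlated at 0.995 and replicate 1 with them at 0.968 and 0.970. Among the genes called higher, replicate 3 showed a median of 70.02% of the log2 shift seen in replicates 1 and 2, and among those called lower 59.5%. The number of detected genes was 8155, 8239 and 7860 on the yMSCs arrays and 7905, 7607 and 7609 on the aMSCs arrays, a mean difference of -378 for aMSCs, which did not pass an exact two-sided permutation test (p = 0.2, with 0.1 the smallest p that 3 against 3 arrays allow). Detected probes had a median intensity 4.29 to 5.14 times that of undetected probes on these 6 arrays.

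The labelled cell type was set against marker lists. Of 18 MSC surface markers on the array, 12 were detected at P30, among them Itgb1, Cd44, Thy1, Alcam and Nt5e, while Vcam1 was not detected in either group. The common leukocyte antigen Ptprc, Cd34, the macrophage genes Cd68 and C1qa, the endothelial genes Vwf and Cdh5 and the globin gene Hbb were not detected. Of 27 macrophage markers 3 were detected, of 21 endothelial markers 3 and of 19 lymphoid and erythroid markers 3. The summed linear signal of the macrophage list was 3230 to 4941 on the yMSCs arrays and 6280 to 7294 on the aMSCs arrays, and without Cyba, a subunit of the NADPH oxidase found in many cell types, it was 739 to 810 and 733 to 798. The summed endothelial list was 614 to 805 in yMSCs and 979 to 1192 in aMSCs, and without Ramp2, a receptor-activity-modifying protein, 503 to 566 and 553 to 597. Cyba was the 1 called gene of its list (log2 difference 0.82, SE 0.22, limma adjusted p = 0.0144), a call that was lost without aMSCs replicate 1 (adjusted p = 0.0541), aMSCs replicate 2 (0.0621) or yMSCs replicate 1 (0.0687). Cyba and Ramp2 were left out because they were called, so the closeness of the remaining sums follows in part from that choice. Most genes left in both sums were not detected at P30. What other cell types contributed to the called genes was not tested.

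Among the genes with a symbol that held on all 3 aMSCs arrays, Cdhr1, Gpx3, Slc16a3 and Aqp1 had the largest measured rises. Cdhr1, a cadherin-related protein known from photoreceptors, had log2 signals of 5.79, 5.34 and 5.08 on the yMSCs arrays and 10.51, 10.28 and 10.17 on the aMSCs arrays. All aMSCs arrays thus lay far above the young ones, a 30.2-fold difference (log2 4.92, SE 0.46, limma adjusted p = 9.87e-07). Gpx3, the secreted glutathione peroxidase, read 5.47, 5.82 and 6.04 in yMSCs and 10.56, 10.67 and 9.73 in aMSCs, a 23.3-fold difference (SE 0.27 on the log2 scale, adjusted p = 2.75e-09). Slc16a3, a lactate exporter of the cell membrane, read 6.94, 7.12 and 7.42 in yMSCs and 11.51, 11.48 and 11.87 in aMSCs, 22-fold apart (SE 0.19, adjusted p = 6.03e-11). The water channel gene Aqp1 read 7.29, 7.57 and 7.45 in yMSCs and 11.81, 11.68 and 11.46 in aMSCs, 18.5-fold apart (SE 0.18, adjusted p = 5.51e-11). In these 4 genes the arrays of a group lay within 1 log2 unit of each other and the groups were separated by more than 3. At P2 the means of yMSCs and aMSCs were 11.62 and 12.33 for Gpx3 and 12.63 and 13.27 for Aqp1, above the aMSCs P30 level. For Cdhr1 (5.09 and 5.88) and Slc16a3 (9.17 and 10.03) they lay below it.

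Some of the risen genes were detected on no yMSCs array, and for these only a lower bound of the fold can be given. The bound sets the mean of the brighter group against, on each array of the dimmer group, the higher of the lowest signal among detected probes and the probe's own signal. Adgrg1, an adhesion G protein-coupled receptor, was at least 11.3-fold higher in aMSCs (8.42, 8.40 and 9.45 on the 3 aMSCs arrays, limma adjusted p = 9.12e-07). Esm1, which encodes the secreted proteoglycan endocan, was at least 8.84-fold higher (8.28, 8.08 and 8.86, adjusted p = 1.05e-07), and Rgs7, a regulator of G protein signalling, at least 7.62-fold higher (8.30, 8.17 and 8.11, adjusted p = 9.87e-07). The G protein gamma subunit gene Gng11 read 5.00, 5.84 and 6.03 in yMSCs and 9.5, 9.36 and 9.39 in aMSCs, a 13.9-fold difference (adjusted p = 1.69e-08). Its P2 means were 10.26 in yMSCs and 10.11 in aMSCs. Ptgr1, a prostaglandin reductase, rose 12.6-fold (adjusted p = 1.87e-05), Sod3, the extracellular superoxide dismutase, 9.05-fold (adjusted p = 1.02e-07) and Pltp, a phospholipid transfer protein, 8.80-fold (adjusted p = 1.01e-08). No yMSCs array overlapped an aMSCs array in any of these 7 genes. In all, 72 genes were detected on all 3 aMSCs arrays and on no yMSCs array, 55 of them named.

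**Figure D1:**
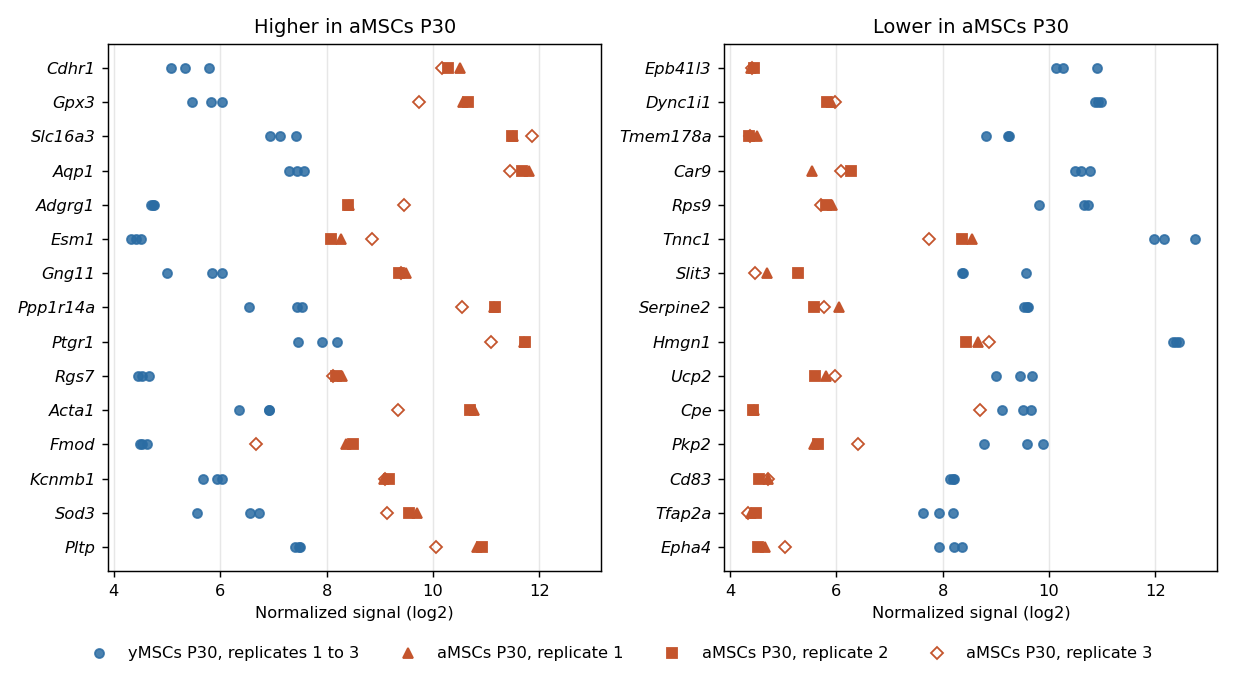
Normalized log2 signal (x axis) of the 15 named genes with the largest rise and the 15 with the largest fall among those that held on all 3 aMSCs P30 arrays, 1 point per array; circles are yMSCs, and the triangle, square and open diamond are aMSCs replicates 1, 2 and 3. The groups are apart in every row by the definition of holding. For Cpe aMSCs replicate 3 (8.69) lies close to yMSCs (9.12 to 9.66) while replicates 1 and 2 lie at 4.45 and 4.44.

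The largest fall was that of Epb41l3, a member of the protein 4.1 family that ties membrane proteins to the actin skeleton. It read 10.91, 10.13 and 10.27 in yMSCs and 4.40, 4.46 and 4.42 in aMSCs, where it was detected on no array, so that it was at least 32.4-fold lower (limma adjusted p = 1.88e-11). Dync1i1, an intermediate chain of the dynein motor, read 10.99, 10.87 and 10.92 in yMSCs and 5.90, 5.83 and 5.98 in aMSCs, a 32.5-fold difference (log2 -5.02, SE 0.16, adjusted p = 1.75e-12). Tmem178a, a transmembrane protein, was at least 12.8-fold lower in aMSCs (8.82, 9.23 and 9.24 in yMSCs, adjusted p = 1.75e-12). Car9, the carbonic anhydrase induced by hypoxia, read 10.77, 10.50 and 10.60 in yMSCs and 5.55, 6.28 and 6.09 in aMSCs (25.1-fold, SE 0.45, adjusted p = 1.17e-06). Epb41l3 and Tmem178a were detected on no aMSCs array, and Dync1i1 and Car9 still on all 3. At P2 the means of yMSCs and aMSCs were 7.32 and 6.76 for Epb41l3 and 10.37 and 6.97 for Dync1i1. They were 4.80 and 4.74 for Tmem178a and 6.84 and 7.39 for Car9. All these P2 means lay below the yMSCs level at P30.

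Further large falls on all 3 aMSCs arrays were those of genes with unlike roles. Slit3, a ligand of Robo receptors, was at least 10.2-fold lower in aMSCs (9.56, 8.36 and 8.38 in yMSCs, 4.70, 5.28 and 4.48 in aMSCs, limma adjusted p = 1.02e-08). Epha4, an ephrin receptor, was at least 6.72-fold lower (adjusted p = 4.22e-09), and Pkp2, a plakophilin of desmosomes, was 11.6-fold lower (8.77, 9.90 and 9.58 against 5.58, 5.65 and 6.41, adjusted p = 1.32e-06). Serpine2, an inhibitor of thrombin and of plasminogen activators, read 9.59, 9.61 and 9.54 in yMSCs and 6.05, 5.58 and 5.76 in aMSCs (13.8-fold, adjusted p = 3.46e-09). No array overlapped between the groups in these genes. Cd83, a surface protein best known from dendritic cells, was at least 6.77-fold lower (adjusted p = 2.88e-08) and Tfap2a, a transcription factor of the AP-2 family, at least 5.66-fold lower (adjusted p = 1.09e-09). Ucp2, a carrier of the inner mitochondrial membrane, fell 12.0-fold (adjusted p = 1.67e-06). Hmgn1, a nucleosome-binding protein, fell 13.3-fold (adjusted p = 1.02e-10), and Rps9, a protein of the small ribosomal subunit, differed 23.9-fold but with an SE of 1.19 (adjusted p = 0.0112). Genes such as Hmgn1 and Rps9 have many near-identical processed copies in mammalian genomes, so which transcript their single probes read is uncertain. Of Cpe, carboxypeptidase E, the difference came mostly from replicates 1 and 2, and with replicate 3 as the only aMSCs array it was -0.74 (adjusted p = 0.292) in place of -3.57. Together 180 genes were detected on all 3 yMSCs arrays and on no aMSCs array, 131 of them named.

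In the extracellular matrix, genes of all 4 lists described here were called in both directions. Their shares of called genes, and those of the lists further below, stand beside 19.9% of all members, 9.24% higher and 10.7% lower. Of 18 detected genes of elastic fibres and basement membrane, 9 were called lower and 1 higher (55.6%), and 7 of the lower ones held on all 3 arrays. The median log2 difference of this list was -0.70, against 0.03 over all members. Fbn2, a fibrillin of the microfibrils around which elastin is laid down, read 8.73, 7.86 and 7.79 in yMSCs and was detected on no aMSCs array (4.94, 4.69 and 4.80), at least 6.53-fold lower (limma adjusted p = 4.12e-09). Its relative Fbn1 read 10.70, 9.53 and 9.77 in yMSCs and 7.57, 7.82 and 7.76 in aMSCs (4.88-fold, adjusted p = 7.26e-06), and Fbln5, which binds elastin to integrins, read 12.99, 12.32 and 12.38 against 11.10, 11.00 and 10.39 (3.32-fold, adjusted p = 3.87e-05). For all 3 genes yMSCs replicate 1 was the highest of the 6 arrays. The elastin gene Eln itself was not called, with 8.88, 7.74 and 7.69 in yMSCs and 7.95, 8.26 and 5.82 in aMSCs (log2 difference -0.76, SE 0.74, adjusted p = 0.521), and replicate 3 was the lowest of the 6 arrays.

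Of 16 detected collagen genes, 5 were called higher and 2 lower (43.8%), each on all 3 arrays, with a median of -0.03. Col15a1, a collagen of basement membrane zones, read 5.79, 4.94 and 4.78 in yMSCs and 8.58, 8.54 and 7.64 in aMSCs (log2 difference 3.09, SE 0.34, limma adjusted p = 5.20e-06). Col6a1, a chain of the beaded filaments, rose by 2.16 (SE 0.32, adjusted p = 0.000128) and Col14a1, which sits on collagen fibrils, by 1.98 (SE 0.38, adjusted p = 0.00132). Col3a1, a fibril-forming collagen of soft tissue, read 12.65, 11.41 and 11.44 in yMSCs and 10.35, 10.52 and 9.92 in aMSCs (-1.57, SE 0.28, adjusted p = 0.000707). The groups did not overlap in any of these 4 genes. Both chains of type I collagen were close to 0, Col1a2 at 0.00 (SE 0.12, adjusted p = 0.993) and Col1a1 at -0.13 (SE 0.22, adjusted p = 0.738), and are named here after their values were seen.

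Small leucine-rich proteoglycans, which bind collagen fibrils, had 4 detected members, 2 called higher and 1 lower (75%). Fmod, fibromodulin, was detected on no yMSCs array and on all aMSCs arrays (8.37, 8.49 and 6.67), at least 5.96-fold higher (limma adjusted p = 1.73e-05). Aspn, asporin, was at least 3.79-fold higher (7.36, 7.31 and 6.89 in aMSCs, adjusted p = 6.92e-06), while Bgn, biglycan, was 1.71-fold lower (adjusted p = 0.0013) without passing the fold on replicate 1. Of 17 detected matricellular and adhesive glycoprotein genes 7 were called lower and 1 higher (47.1%), with a median of -0.29. Thbs2, an antiangiogenic thrombospondin, read 8.64, 7.62 and 7.72 in yMSCs and 5.34, 5.32 and 5.44 in aMSCs (-2.63, SE 0.28, adjusted p = 3.36e-06), and Mgp, an inhibitor of mineralization, fell by 2.08 (adjusted p = 6.93e-05). Tgfbi was at least 1.84-fold lower in aMSCs (adjusted p = 1.37e-05). The 1 higher gene of this list was Spp1, osteopontin, at 0.62 (adjusted p = 0.00369), which did not pass the fold on replicate 2.

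Smooth muscle contractile genes were higher in aMSCs where they held on all 3 arrays. Of 11 detected, 4 were called higher on all 3 arrays and 2 were lower on replicates 1 and 2 only (54.5%), with a median of 0.40. The medians on aMSCs replicates 1, 2 and 3 were 0.50, 0.61 and 0.10. Ppp1r14a, an inhibitor of myosin phosphatase that was not in the list, read 6.54, 7.53 and 7.45 in yMSCs and 11.14, 11.18 and 10.55 in aMSCs (13.8-fold, limma adjusted p = 4.66e-08). Kcnmb1, the beta subunit of the large-conductance potassium channel of smooth muscle, read 5.67, 6.03 and 5.94 in yMSCs and 9.08, 9.18 and 9.09 in aMSCs (9.45-fold, adjusted p = 4.37e-06). Cnn1, calponin, rose by 1.39 (SE 0.23, adjusted p = 0.000476) and the enteric actin gene Actg2 by 1.26 (SE 0.29, adjusted p = 0.00599). The fourth, named after its value was seen, was Myocd, a coactivator of smooth muscle genes (0.81, SE 0.22, adjusted p = 0.0134). The striated muscle list went both ways, with 2 of 9 detected genes called higher and 2 lower (44.4%). Acta1, skeletal actin, read 6.35, 6.91 and 6.91 in yMSCs and 10.77, 10.70 and 9.35 in aMSCs (11.7-fold higher, adjusted p = 2.04e-06), while Tnnc1, troponin C of slow and cardiac muscle, read 11.98, 12.75 and 12.16 in yMSCs and 8.55, 8.36 and 7.75 in aMSCs (16.8-fold lower, adjusted p = 8.85e-07). Without its 4 called genes the summed striated muscle list was 875 to 1074 in yMSCs and 820 to 882 in aMSCs. These sums leave out the genes chosen for differing, so their closeness follows in part from that choice. The actin genes have highly similar coding sequences, so which of them a probe reads is uncertain where it lies in the coding part.

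Regulators of bone and fat formation differed in both directions. Of 12 detected osteoblast and mineralization genes, 4 were called higher and 3 lower (58.3%). The homeobox gene Msx1 was detected on all aMSCs arrays (6.14, 5.95 and 6.13) and on no yMSCs array (4.44, 4.57 and 4.47), at least 1.75-fold higher (limma adjusted p = 9.12e-07), and Msx2 rose by 1.81 (SE 0.20, adjusted p = 5.20e-06). Both encode transcription factors downstream of bone morphogenetic proteins. Pth1r, the receptor of parathyroid hormone, fell by 2.01 (7.97, 8.12 and 7.88 against 6.44, 6.2 and 5.29, adjusted p = 3.70e-06), Enpp1, which makes the mineralization inhibitor pyrophosphate, fell by 1.46 (adjusted p = 1.33e-05), and the bone matrix gene Dmp1 was at least 1.61-fold lower (adjusted p = 0.00121). All 5 of these genes held on all 3 aMSCs arrays. Of 12 detected adipocyte genes 3 were called higher and 1 lower (33.3%). Lpl, lipoprotein lipase, read 8.58, 8.17 and 8.32 in yMSCs and 4.97, 4.70 and 5.58 in aMSCs (9.65-fold lower, adjusted p = 9.5e-07), while Acsl1, a fatty acid activating enzyme, rose by 1.12 (SE 0.17, adjusted p = 0.000166).

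Within bone morphogenetic protein (BMP) signalling, 24 genes were detected, 5 called higher and 5 lower (41.7%). Among the ligands, Bmp4 read 6.44, 6.94 and 6.85 in yMSCs and was detected on no aMSCs array (4.49, 4.77 and 4.70), at least 2.5-fold lower (limma adjusted p = 3.84e-05). Bmp2 was detected in aMSCs only, on replicates 1 and 2 (5.96, 5.74 and 5.17, adjusted p = 0.00213), and Bmp6 was not detected in either group. Among the extracellular antagonists and modulators, Fst, follistatin, read 5.55, 5.97 and 5.46 in yMSCs and 8.06, 7.97 and 8.63 in aMSCs (5.90-fold higher, adjusted p = 1.04e-05), and Bmper was at least 5.33-fold lower (8.35, 7.47 and 7.68 in yMSCs, adjusted p = 1.11e-06). So of Fst and Bmper 1 rose and 1 fell, each on all 3 arrays. Grem1, another secreted antagonist of BMPs, was also called lower, a call lost without aMSCs replicate 2 (-1.13, adjusted p = 0.0582). The receptors Bmpr1a (-0.41, SE 0.16, adjusted p = 0.0872) and Bmpr2 (-0.61, SE 0.23, adjusted p = 0.0725) were not called. Id2, an inhibitor of differentiation induced by BMPs, rose by 1.23 (SE 0.30, adjusted p = 0.00823).

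Of 9 detected genes of the insulin-like growth factor system 66.7% were called. Of these, 4 were lower, 3 of them on all 3 arrays, and 2 higher, on replicates 1 and 2 only. Igfbp3, a carrier of these growth factors, was detected on all yMSCs arrays (5.87, 6.63 and 6.44) and on no aMSCs array, at least 1.86-fold lower (limma adjusted p = 5.06e-06). Igfbp2 fell by 2.20 (6.79, 7.97 and 7.96 against 5.82, 5.29 and 5.02, adjusted p = 0.000134), and Igf2bp1, which binds the messenger RNA of Igf2, was at least 1.73-fold lower (adjusted p = 6.93e-07). Of 16 detected growth factor and receptor genes of the FGF, PDGF, VEGF, HGF and EGF type 5 were called lower and 2 higher (43.8%). The platelet-derived growth factor receptor gene Pdgfra fell by 1.18 (9.62, 8.47 and 8.54 against 7.43, 7.52 and 8.13, adjusted p = 0.00636), and Fgf2 rose by 0.96 (SE 0.19, adjusted p = 0.00199). Both held on all 3 arrays. Of 16 detected Wnt genes 2 were called higher and 5 lower (43.8%). Among the lower was the secreted inhibitor gene Wif1, at least 1.15-fold lower in aMSCs (adjusted p = 0.000146).

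Genes of antigen presentation on MHC class I, the surface complex that shows peptides to cytotoxic T cells, were called in 1 direction only. Of 14 detected genes, 6 were called higher, all on all 3 arrays, and 0 lower, 42.9% against 19.9% of all members, with a median log2 difference of 0.50. RT1-A1, a class I heavy chain of the rat, read 6.93, 7.40 and 7.19 in yMSCs and 9.35, 9.30 and 8.85 in aMSCs (3.98-fold, limma adjusted p = 4.37e-06). Psmb8 and Psmb10 encode subunits that replace their counterparts in the immunoproteasome. Psmb8 read 5.15, 5.90 and 5.74 in yMSCs and 7.34, 7.23 and 7.06 in aMSCs (3.06-fold, adjusted p = 0.00387), and Psmb10 8.31, 9.66 and 9.55 against 10.63, 10.55 and 10.23 (2.46-fold, adjusted p = 0.00733). The groups did not overlap, although yMSCs replicate 1 lay below the other 2 young arrays for Psmb10 by more than 1. With replicate 3 as the lone aMSCs array the calls of Psmb8 (1.46, adjusted p = 0.146) and Psmb10 (1.05, adjusted p = 0.269) were lost. Beyond the rule for named genes, the other 3 called genes and B2m and Tap1 are named after their values were seen. The 3 were RT1-M3-1 (1.05), RT1-T24-4 (0.99) and RT1-CE15 (0.73). The RT1 class I genes are near-identical copies, so a probe may read several of them. B2m, the light chain shared by all class I molecules, differed by 0.49 (SE 0.14, adjusted p = 0.0206), short of the fold of 1.5, and the peptide transporter gene Tap1 by 0.52 (adjusted p = 0.219). Of 11 detected interferon-induced genes 2 were called higher and 1 lower (27.3%). Irf7, the transcription factor at the centre of the type I interferon response, read 5.59, 5.75 and 5.46 in yMSCs and 7.30, 7.25 and 6.51 in aMSCs (2.68-fold, adjusted p = 0.000237, and 0.91 on the log2 scale with adjusted p = 0.0687 from replicate 3 alone).

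The promoters of these genes were searched for the interferon-stimulated response element core GAAANNGAAA on both strands, since interferon response factors are known to bind it. RefSeq windows on the GRCr8 build, 250 bases before to 50 bases after the start of the gene, were available for the 6 called antigen presentation genes and Irf7. The core was found in 3 of the 7, at 1312 of 33469 windows genome-wide (3.92%). These 3 are shown in the direction of the gene because they are the ones that carry the core, with the core in capitals: Irf7 at chr1:205799974-205800273 (minus strand, core on the reverse strand from base 182), Psmb10 at chr19:50743243-50743542 (minus strand, 2 cores from bases 178 and 234) and Psmb8 at chr20:4656982-4657281 (minus strand, core on the reverse strand from base 247).
Irf7: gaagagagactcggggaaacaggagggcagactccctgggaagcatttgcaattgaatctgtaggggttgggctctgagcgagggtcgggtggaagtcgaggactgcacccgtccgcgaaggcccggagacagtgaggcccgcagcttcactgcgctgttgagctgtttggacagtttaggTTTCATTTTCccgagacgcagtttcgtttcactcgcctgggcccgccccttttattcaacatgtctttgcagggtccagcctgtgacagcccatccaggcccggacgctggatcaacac
Psmb10: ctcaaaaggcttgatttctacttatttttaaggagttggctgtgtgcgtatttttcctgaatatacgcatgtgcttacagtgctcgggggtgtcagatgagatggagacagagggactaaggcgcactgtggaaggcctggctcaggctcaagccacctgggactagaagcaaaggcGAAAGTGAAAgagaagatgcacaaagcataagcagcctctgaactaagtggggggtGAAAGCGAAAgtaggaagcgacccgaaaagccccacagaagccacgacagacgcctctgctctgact
Psmb8: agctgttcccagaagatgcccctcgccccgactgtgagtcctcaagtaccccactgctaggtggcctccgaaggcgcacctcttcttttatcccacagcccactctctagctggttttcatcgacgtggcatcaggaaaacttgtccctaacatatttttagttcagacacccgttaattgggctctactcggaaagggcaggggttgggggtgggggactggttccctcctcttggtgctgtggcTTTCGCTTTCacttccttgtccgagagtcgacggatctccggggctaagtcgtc
The match is one of letters, and no binding was measured. The windows of RT1-A1, RT1-CE15, RT1-M3-1 and RT1-T24-4 did not hold these letters.

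Of 14 detected chemokine and interleukin genes 3 were called higher and 1 lower (28.6%), with a median of 0.02. Of 5 detected complement genes 1 was called higher and 2 lower (60%). Among immune ligands and regulators, Il1rl1, the receptor of interleukin 33, read 9.79, 9.29 and 9.08 in yMSCs and 11.20, 11.04 and 11.04 in aMSCs (3.27-fold higher, limma adjusted p = 3.36e-05). Il15, which sustains natural killer and memory T cells, rose by 1.26 (SE 0.17, adjusted p = 6.43e-05). Ackr3, a scavenging receptor of the chemokine Cxcl12, was detected on all yMSCs arrays (7.17, 7.42 and 7.34) and on no aMSCs array, at least 3.71-fold lower (adjusted p = 2.74e-05). Cd55, which protects cells from complement, was at least 5.99-fold lower (8.35, 7.83 and 7.83 in yMSCs, adjusted p = 2.61e-07), while C1r, a protease of the classical complement pathway, rose by 1.04 (SE 0.14, adjusted p = 5.21e-05). In each of these 5 genes the 3 aMSCs arrays lay on the same side of all yMSCs arrays.

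Redox and stress lists had shares of called genes between 21.1% and 33.3%, beside 19.9% of all members. Of 38 detected glutathione and antioxidant genes 7 were called higher and 3 lower (26.3%, median 0.18). Beside the secreted enzymes Gpx3 and Sod3, which rose, Mgst1, a membrane-bound glutathione transferase, was at least 2.97-fold lower (6.62, 7.30 and 7.05 in yMSCs, limma adjusted p = 0.000116). Of 21 detected genes of amino acid synthesis and the stress response tied to it, 6 were called higher and 1 lower (33.3%). Slc7a3, a carrier of arginine and lysine, was detected on no yMSCs array and on all aMSCs arrays (7.46, 7.22 and 7.16), at least 4.04-fold higher (adjusted p = 5.19e-10). Bnip3, a mitochondrial protein induced by hypoxia, read 7.81, 8.07 and 7.93 in yMSCs and 9.91, 9.87 and 9.39 in aMSCs (3.46-fold higher, adjusted p = 1.16e-06), opposite in sign to Car9 of the same hypoxia list. Of that list 2 were called higher and 2 lower of 16 (25%), near the share of all members. Pdia5, a disulfide isomerase of the endoplasmic reticulum, read 9.83, 9.94 and 10.13 in yMSCs and 6.90, 6.79 and 6.56 in aMSCs (9.32-fold lower, adjusted p = 1.18e-10). It was 1 of 4 genes called lower of 19 chaperones and isomerases (21.1%), with 0 called higher.

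Lists of the basic cell machinery had few calls beside the 19.9% of all members. Of 23 mitosis and spindle genes 0 were called, of 56 respiratory chain genes 1 higher and 1 lower, of 56 cytosolic ribosome genes 3 and 2, and of 29 proteasome genes 1 and 2, where Psmd5, a chaperone of proteasome assembly, rose by 2.46 (6.12, 6.11 and 6.09 in yMSCs, 8.53, 8.55 and 8.62 in aMSCs, limma adjusted p = 1.90e-08). Of 37 DNA replication genes 5 were called lower and 0 higher, 4 of them on aMSCs replicates 1 and 2 only. Rrm2, a subunit of ribonucleotide reductase, showed this pattern with 8.63 and 8.99 on replicates 1 and 2 and 11.15 on replicate 3, beside 10.90 to 11.55 in yMSCs. Its call (-1.66, adjusted p = 0.0223) was lost without aMSCs replicate 1 (-1.18, adjusted p = 0.138) or 2 (-1.36, adjusted p = 0.117) and without yMSCs replicate 1 (-1.52, adjusted p = 0.0677) or 3 (-1.63, adjusted p = 0.0568). Of 14 detected genes of DNA methylation and Polycomb enzymes 0 were called. The cell cycle inhibitor gene Cdkn1a overlapped between the groups, with 5.08, 6.01 and 5.71 in yMSCs and 5.55, 5.30 and 6.13 in aMSCs (0.06, SE 0.23, adjusted p = 0.904).

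**Figure D2:**
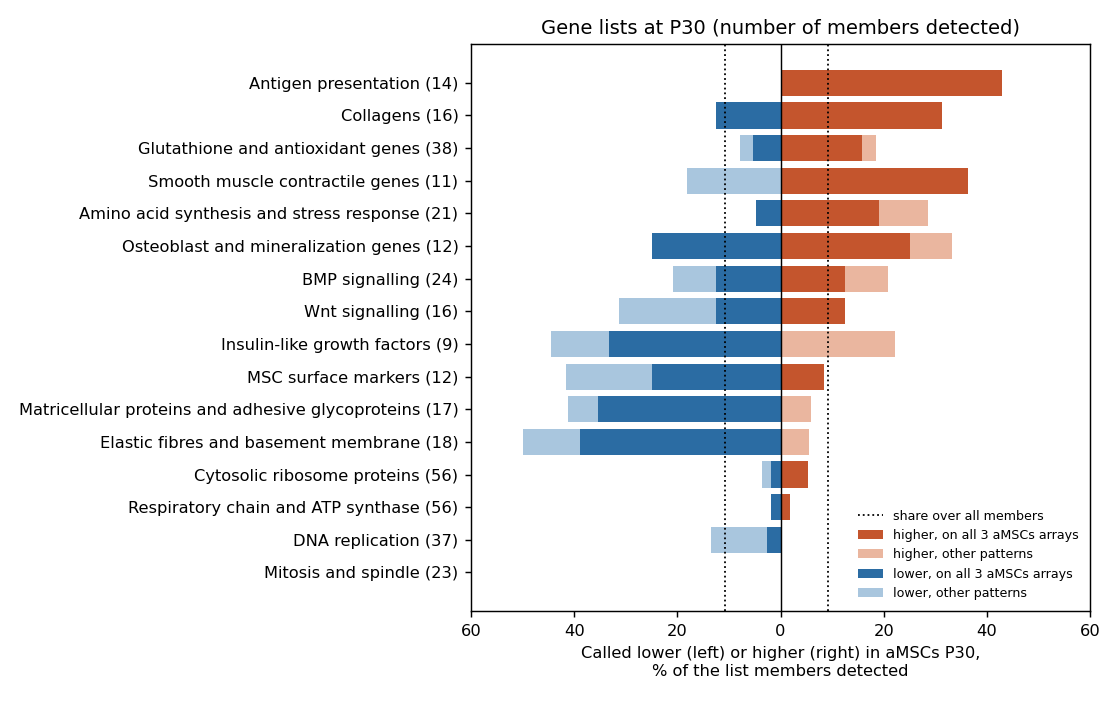
Share of the detected members of 16 gene lists called lower (left of 0) and higher (right of 0) in aMSCs P30, in percent, with the dark part of each bar for genes that held on all 3 aMSCs arrays. Dotted lines mark the shares over all 8196 members, 10.7% lower and 9.24% higher; antigen presentation has 6 of 14 genes to the right and 0 to the left, elastic fibres 9 of 18 to the left.

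Of the 12 detected surface markers that define MSCs, 5 were called lower in aMSCs, 3 of them on all 3 arrays. Another 1 was called higher and 6 were not called, so that 50% were called, beside 19.9% of all members. The list had a median log2 difference of -0.83 and per-array medians of -1.03, -1.01 and -0.19 for aMSCs replicates 1, 2 and 3. Alcam, an adhesion molecule known as CD166, fell on all 3 arrays (9.55, 9.33 and 9.17 against 7.81, 7.72 and 8.44, 2.57-fold, limma adjusted p = 1.73e-05). Thy1, known as CD90, read 11.38, 11.28 and 11.59 in yMSCs and 8.75 and 8.89 on aMSCs replicates 1 and 2, but 11.39 on replicate 3, within the young range. Its call (-1.74, SE 0.45, adjusted p = 0.0111) was lost without aMSCs replicate 1 (-1.27, adjusted p = 0.0750) or replicate 2 (-1.34, adjusted p = 0.0756). The hyaluronan receptor gene Cd44 (-0.56, SE 0.21, adjusted p = 0.0701) and the integrin gene Itgb1 (-0.81, SE 0.33, adjusted p = 0.0899) were not called. Nt5e, known as CD73, was the 1 higher marker (5.89, 5.68 and 5.54 against 7.26, 7.09 and 6.32, adjusted p = 0.00792).

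Imprinted genes, which are read from 1 parental copy, had 8 detected members, 3 called higher and 2 lower (62.5%). Snrpn, which encodes a splicing protein, read 10.03, 10.57 and 10.52 in yMSCs and 13.06, 13.16 and 13.07 in aMSCs (6.61-fold, limma adjusted p = 2.88e-08). Ndn, necdin, rose by 2.49 (4.94, 6.04 and 5.54 against 8.52, 8.30 and 7.16, adjusted p = 1.14e-05), and Slc22a18, an organic cation carrier, was at least 3.17-fold higher (6.93, 7.08 and 6.77 in aMSCs, adjusted p = 4.08e-06). Plagl1, a zinc finger transcription factor, was detected on all yMSCs arrays (7.01, 7.18 and 6.98) and on no aMSCs array, at least 3.11-fold lower (adjusted p = 1.78e-09). Grb10 was low on aMSCs replicates 1 and 2 only (4.33 and 4.42, with 6.40 on replicate 3), and its call (-1.67, adjusted p = 0.0104) was lost without aMSCs replicate 1 (-1.31, adjusted p = 0.0682) or 2 (-1.36, adjusted p = 0.0669). Cdkn1c, Phlda2 and Igf2r, named after their values were seen, differed by 0.06, 0.12 and 0.09 and were not called.

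The 690 genes that passed the fold on aMSCs replicates 1 and 2 but not on 3 included 409 lower and 281 higher. In the lower ones the first and the second aMSCs array could lack a signal that replicate 3 had at the young level. Msn, moesin, which links actin to the membrane, read 9.90, 8.92 and 9.30 in yMSCs, 4.38 and 4.50 on aMSCs replicates 1 and 2 and 9.34 on replicate 3. The caveolae protein gene Cav1 read 10.69, 9.75 and 9.93 in yMSCs, 5.61 and 5.42 on replicates 1 and 2 and 10.59 on replicate 3, and Npm1, nucleophosmin, 13.37, 13.01 and 13.14, then 8.34 and 9.97, then 13.08. Replicate 3 was thus inside or at the edge of the yMSCs range in all 3 genes. Their calls, Msn at -3.30 (limma adjusted p = 0.00944), Cav1 at -2.92 (0.0265) and Npm1 at -2.71 (0.0107), were lost without replicate 1 (adjusted p 0.0641, 0.153 and 0.0536) or replicate 2 (0.0657, 0.164 and 0.0547), and for Cav1 also without yMSCs replicate 1 (0.0800) or 3 (0.0530). With replicate 3 as the lone aMSCs array the Cav1 difference was 0.47. Of 49 named genes with this pattern, 35 lost their call without 1 of the 6 arrays, against 8 of 143 named genes that held on all 3. Both groups were defined by these same arrays, so the contrast is no separate support. Over the 18 arrays of the series, 152 genes lay at least 2-fold below all 16 other arrays on aMSCs P30 replicates 1 and 2, and 8 lay at least 2-fold above them.

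Among the higher genes of this pattern, Klf15, a metabolic transcription factor, read 5.89, 5.54 and 5.43 in yMSCs and 7.46, 7.33 and 6.2 in aMSCs (2.60-fold, limma adjusted p = 0.000992), and Plpp3, a lipid phosphate phosphatase, 7.37, 7.44 and 7.46 against 9.27, 9.01 and 7.61 (2.31-fold, adjusted p = 0.0056). In both, replicate 3 lay above the young arrays by less than the fold. The reverse pattern was rare: in 5 genes replicate 3 alone was past 2-fold from every yMSCs array, with replicates 1 and 2 within 1.5-fold of the yMSCs mean. The named ones were Eln, Tcn2, a vitamin B12 carrier (7.61, 7.56 and 7.53 in yMSCs, 7.60, 7.79 and 6.12 in aMSCs), Mark1, a microtubule-affinity kinase, and Rap1gds1, an exchange factor, which was higher on replicate 3 (7.15, beside 5.17 to 5.96 on the other 5 arrays).

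**Figure D3:**
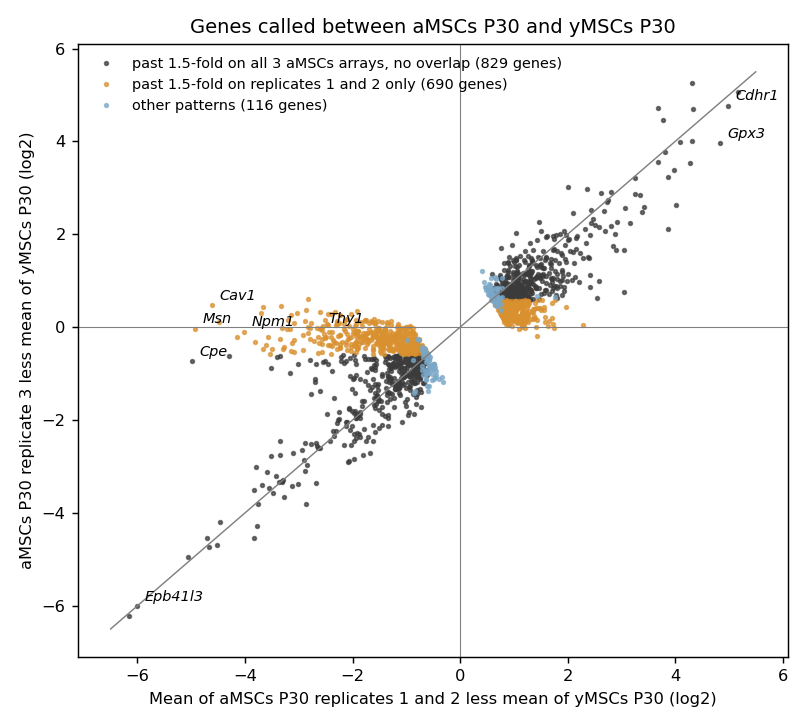
Each point is a called gene, with the log2 difference of the mean of aMSCs P30 replicates 1 and 2 from the yMSCs P30 mean on the x axis and that of replicate 3 on the y axis; black points are the 829 genes that held on all 3 arrays, orange points the 690 past the fold on replicates 1 and 2 only and blue points the 116 others, and the line marks equal differences. Black points such as Cdhr1 and Epb41l3 lie near the line, and orange points such as Msn, Cav1, Npm1 and Thy1 lie near 0 on the y axis.

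A small set of genes set aMSCs P30 apart from the whole series. On all 3 aMSCs P30 arrays, 7 genes were at least 2-fold above and 10 at least 2-fold below each of the 15 other arrays. The higher ones with a symbol were Slc16a3, Snrpn, Msx2, Adra1b and Ms4a4c, and the lower ones Epb41l3, Bmp4, Clmp, Lrrc8d, S100a16, Sirpa and Tspan2. They were named after their values were seen. Epb41l3 had group means of 7.32 and 6.76 at P2 and 10.2 and 10.3 at P100 in yMSCs and aMSCs. Bmp4 had group means of 7.22, 7.44, 8.08 and 7.33 in yMSCs P2, aMSCs P2, yMSCs P100 and aMSCs P100.

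By chromosome, the genes of chromosome 6 had the lowest median difference. Chromosomes were taken for 5988 members from the RefSeq annotation of GRCr8 through the gene symbol, and this was done after values had been seen. The 270 members on chromosome 6 had a median log2 difference of -0.32, a 1.25-fold difference, with -0.32, -0.32 and -0.28 on aMSCs replicates 1, 2 and 3. Of these genes 61.5% lay below the yMSCs mean on all 3 aMSCs arrays, against 28.7% of all members, and 62 (23.0%) were called lower and 9 (3.33%) higher. The medians of the other 20 chromosomes lay between -0.05 and 0.18. An exact permutation test of the 6 arrays gave p = 0.1 for chromosome 6, the smallest p that 3 against 3 arrays allow. Chromosomes 1, 4 and 18, with medians of 0.18, 0.00 and -0.05, had the same p, so that the test does not set chromosome 6 apart, and its shares above describe a chromosome chosen for its value. Against the mean of the 6 P2 arrays, the chromosome 6 median was 0.21, 0.17 and 0.10 on the yMSCs P30 arrays and -0.14, -0.18 and -0.11 on the aMSCs P30 arrays, so that the groups moved away from P2 in opposite directions. Against the same P2 mean, the chromosome 6 median was 0.17, 0.22 and 0.17 on the aMSCs P100 arrays. On the yMSCs P100 arrays it was 0.11, 0.14 and 0.13. At P2 the median difference between aMSCs and yMSCs was 0.03 and at P100 it was 0.07. DNA copy number was not measured.

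Runs of 40 neighbouring members were then compared along each chromosome, with the length of the run and a limit of 0.25 on each aMSCs array chosen after seeing the values. Of 137 runs 8 passed. In chromosome 1, 5 consecutive runs of 19 passed, from Slx1b to Zp1, with 200 members and medians of 0.43, 0.46 and 0.32 on aMSCs replicates 1, 2 and 3. Of these members 49 were called higher and 2 lower, which describes genes chosen for high values on these arrays and is no separate support. The median difference of the same genes was 0.01 at P2 and -0.19 at P100. On chromosome 6, 2 of 6 runs passed downwards, from Nova1 to L3hypdh (-0.33) and from Arel1 to Glrx5 (-0.31), and on chromosome 13, 1 of 4 runs passed upwards, from Gorab to Opn3 (0.27).

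**Figure D4:**
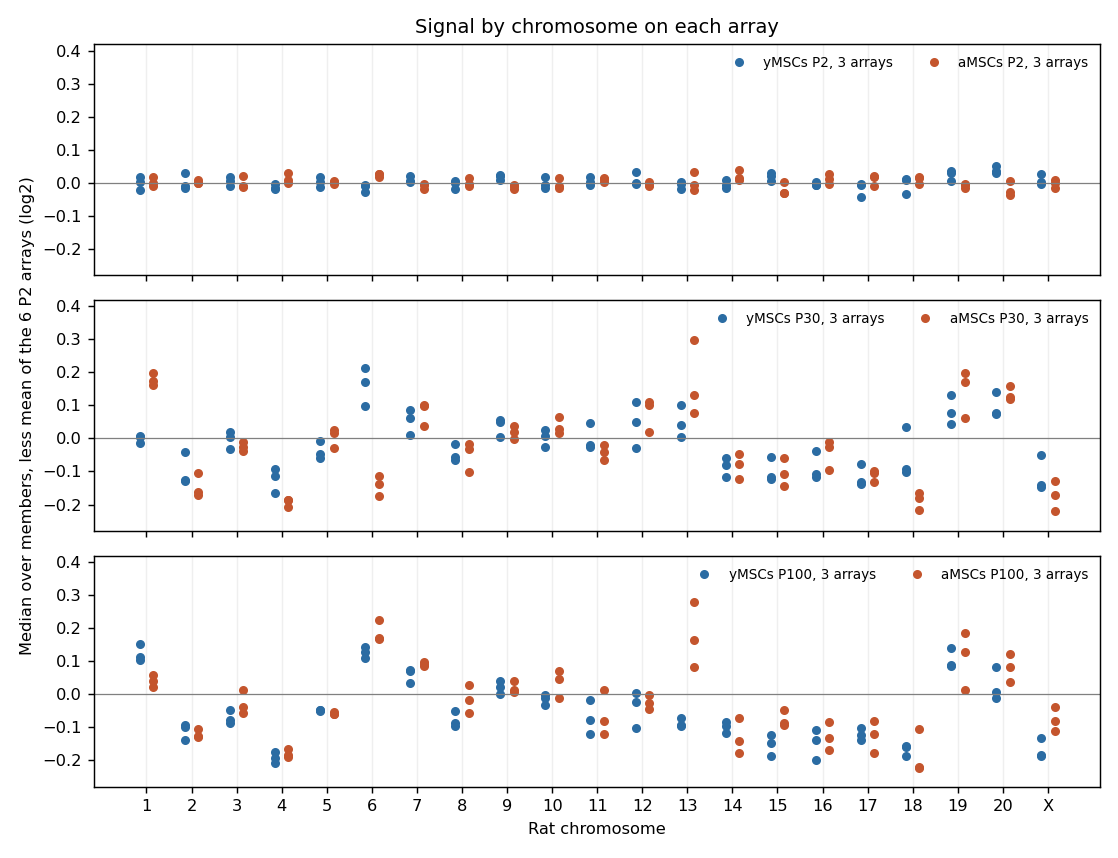
Median over the members of each chromosome of the log2 signal less the mean of the 6 P2 arrays (y axis), by chromosome (x axis), 1 point per array, in panels for P2, P30 and P100, with yMSCs and aMSCs in different colours. At P30 the 3 aMSCs arrays lie from -0.18 to -0.11 and the 3 yMSCs arrays from 0.10 to 0.21 on chromosome 6. The P2 points lie near 0 because the P2 mean is subtracted.

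The P30 differences were set beside those of the other passages. The comparison of aMSCs with yMSCs called 386 of the 9531 tested genes at P2 (4.05%). The P30 comparison called 1682 of them (17.6%) and that at P100 1816 (19.1%). Of the 829 genes that held at P30, 78 (9.41%) were called in the same direction at P2 and 32 in the opposite one. At P100, 234 (28.2%) were called in the same direction and 108 (13.0%) in the opposite one. The number called the same way at all 3 passages was 28. Of the 690 genes past the fold on replicates 1 and 2 only, 8 were called in the same direction at P2 and 7 in the opposite one. At P100 the counts were 92 and 32. As a share of the other lists, 23.3% of the P2 calls and 19.7% of the P100 calls were called the same way at P30. The 3 comparisons share no arrays, but they share 1 fit and its estimate of spread. The change in the difference itself was then tested. It was called for 1123 genes between P30 and P2 (11.8%), 554 of them with the more positive difference at P30. Between P30 and P100 it was called for 2085 genes (21.9%), 996 with the more positive and 1089 with the more negative difference at P30, a split that was 561 to 1480 without normalization between arrays.

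Among the genes called the same way throughout, Csrp2, a LIM protein of muscle, was lower in aMSCs by 2.20 at P2, 2.17 at P30 and 2.5 at P100, on the log2 scale, and the change between passages was 0.02 from P2 (SE 0.47, limma adjusted p = 0.985) and 0.32 from P100 (SE 0.47, adjusted p = 0.660). Sncg, gamma-synuclein, was higher by 1.23, 2.60 and 2.70, and Sod3 by 1.27, 3.18 and 2.99. Aox1, aldehyde oxidase, was detected on no yMSCs P30 array and was higher in aMSCs by 2.06 at P2 and by 6.07 at P100, and at least 2.74-fold at P30. In these 4 genes no yMSCs P30 array overlapped an aMSCs P30 array.

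Other genes turned their direction between P30 and P100. Slit3 differed by -2.08 at P2 and -3.95 at P30 but by 3.05 at P100, with a difference between P30 and P100 of -6.99 (SE 0.36, limma adjusted p = 6.35e-10). Serpine2 went from -3.78 at P30 to 2.90 at P100, Fbn2 from -3.31 to 2.73, Thbs2 from -2.63 to 4.16, and Rgs2, a regulator of G protein signalling, from -3.06 to 2.24. Crabp1, a retinoic acid carrier, went from -2.13 to 2.53. In each of these 6 genes the change between passages passed the test. They were chosen for opposite calls at P30 and P100 in the same fit, so this is no separate support. For Slit3 the yMSCs mean was 7.92 at P2 and 4.42 at P100, and the aMSCs mean 5.83 and 7.47. The yMSCs P100 means of Slit3, Fbn2 (4.69), Thbs2 (4.64), Sod3 (4.32) and Aox1 (4.42) lay below the lowest signal of a detected probe on those arrays (5.32 to 5.49), so that the P100 values given here are fitted differences and not folds.

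**Figure D5:**
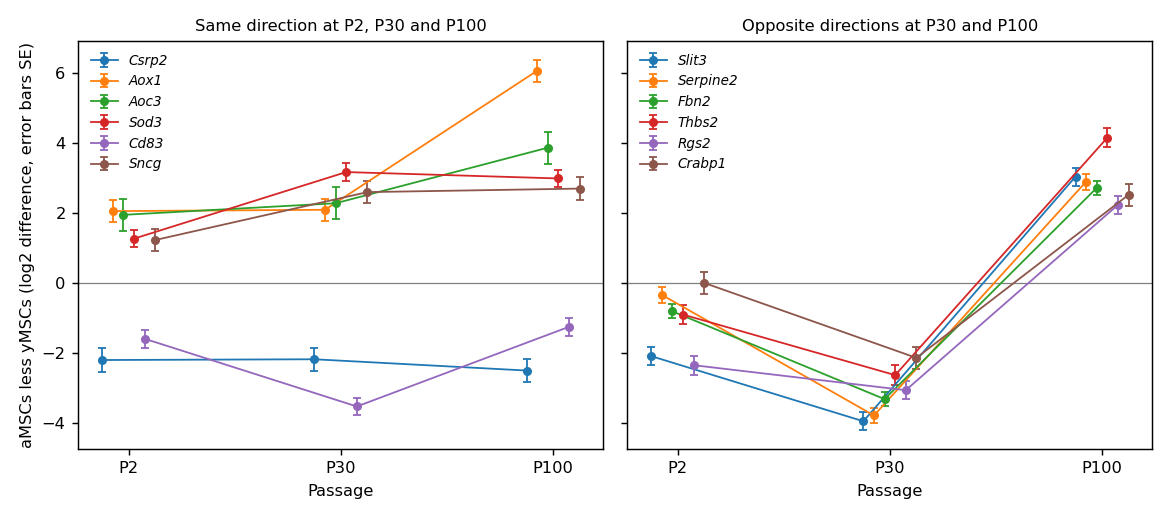
Log2 difference of aMSCs less yMSCs, with its SE from limma (3 arrays a group), at P2, P30 and P100 for 6 genes called the same way at all 3 passages and 6 genes called in opposite ways at P30 and P100. Slit3, Serpine2, Fbn2, Thbs2, Rgs2 and Crabp1 lie below 0 at P30 and above 0 at P100.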

How the data were processed

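Total RNA of cultured MSCs was labelled with biotin and read on 18 Illumina rat bead arrays. The deposited table gave, per probe, an intensity that the authors exported from BeadStudio version 3 without normalization and a detection p-value against negative control beads, which moved in steps of 1 in 825. A table of authors' processed values, background-subtracted and rank-invariant normalized, served as an alternative. In R 4.3.3 with limma 3.58.1 the intensities were background-corrected by normexp with negative controls inferred from the detection p-values, given an offset of 16, quantile-normalized and log2-transformed. The probe with the highest mean stood for a gene. Symbols came from the platform annotation and 70 probes whose entries did not pair between both tables were left out of that match. The array number limits the precision, and no column of another sample was present. One linear model with 6 group means over 18 arrays (lmFit, eBayes) gave differences, SEs and Benjamini-Hochberg adjusted p over 9531 genes.

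Named genes were the 15 largest rises and falls that held on all 3 aMSCs arrays, up to 8 a direction past the fold on replicates 1 and 2 only, up to 4 a direction on replicate 3 only, up to 3 called genes a direction of each described list, genes the study's text names, and up to 6 genes that kept or turned their direction over passages. Members and lists were chosen with earlier results of these data known. In simulated data of 9531 genes for this comparison, 24%, 82% and 100% of 50 genes changed 1.5-fold, 2-fold and 4-fold were called, and 0.119% of unchanged genes. Of 100 genes changed 4-fold on replicates 1 and 2 only, 19% were called. The simulated noise was independent between arrays, whereas real arrays of a group were not equally alike, so these shares do not carry over to the real arrays. Alternatives covered normalization, background, offset, filters, fold, arrays in the fit, array weights, the replicate block and an equal-variance t-test.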

Additional observations from a re-analysis of the deposited data

Results flagged for a closer look

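The difference between aMSCs and yMSCs itself changed with passage in many genes. The change between P30 and P2 passed the limma test in 1123 of 9531 genes and that between P30 and P100 in 2085, with 996 more positive and 1089 more negative at P30 (561 and 1480 without normalization between arrays). The first count was 721 without aMSCs P30 replicate 2, 751 without replicate 1 and 2090 without replicate 3.

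Of 6 genes called in opposite directions at P30 and P100, the difference at P30 less that at P100 was -6.99 on the log2 scale for Slit3, -6.79 for Thbs2, -6.69 for Serpine2, -6.04 for Fbn2, -5.30 for Rgs2 and -4.66 for Crabp1. In each the aMSCs lay below the yMSCs at P30 and above them at P100.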

How the results depend on the processing

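The 1635 calls fell to 799 at a fold of at least 2, to 697 with the 6 arrays of P30 alone in the fit, to 242 by the methods' t-test after Benjamini-Hochberg adjustment (1137 before) and to 516 without aMSCs P30 replicates 1 and 2 together, where replicate 3 is the lone aMSCs array and is assumed to vary like the other groups. Leaving out 1 array gave 1058 to 2241 calls. Under other normalizations, background corrections, filters, the 12 late arrays and array weights, whose fit stopped before convergence, the count lay between 1133 and 2428. The 829 genes holding on all 3 arrays became 532 with an offset of 50, 1348 when only the lack of overlap was asked and 337 at 2-fold on each array, and between 572 and 949 otherwise. The 690 genes on replicates 1 and 2 only became 39 with the 6 arrays alone, 442 with 12 arrays and 1113 with array weights. The change from P2 (1123 genes) became 733 at a 2-fold limit, 3104 with array weights and 452 without replicates 1 and 2, with 721 to 2090 when 1 array was left out, and the change from P100 (2085) became 1285 at a 2-fold limit and 1237 without replicates 1 and 2, with 1638 to 2712. The cause of these shifts was not tested.

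For the 270 genes of chromosome 6 and the run on chromosome 1, alternatives were added after seeing the data. The chromosome 6 median was -0.35 with cyclic loess, -0.29 without background correction, -0.28 with an offset of 50 and -0.28 without aMSCs replicates 1 and 2, and -0.33 to -0.30 when 1 array was left out. The median of the run was 0.31 with an offset of 50 and 0.35 to 0.43 when 1 array was left out.

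The difference in detected genes lay between -490 and -300.5 when 1 array was left out. The deviations of same-numbered arrays of both groups correlated at r = -0.04, 0.08 and 0.09, and those of arrays of different number at -0.14 to 0.16. With 3 arrays a group this cannot decide whether the numbers pair the samples. The replicate block gave 1587 calls, 823 genes holding on all 3 arrays and 651 on replicates 1 and 2 only. It gave 979 and 1943 genes for the changes from P2 and P100.

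Of 204 called genes that the text could name, 58 were neither lost nor reversed under any alternative, and 93 were lost without aMSCs replicates 1 and 2, among them 42 of 143 that held on all 3 arrays. Those reversed without both replicates were, as log2 difference, Flot2 (-0.0124), Cav1 (0.47), Pdgfc (0.0327), Rps2 (0.27) and Ier5 (0.60), and the other probe of Map1b gave 0.0233. Of 13 other probes of called genes 9 had the same direction. With detected signals 4.29 to 5.14 times the undetected ones, folds of dim genes are limited by background.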

Other observations

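Values of further gene lists at P30 are given here beside the 19.9% of all members that were called, and no list was tested as a group. Of 10 detected neural and Schwann cell genes 4 were called lower and 1 higher (50%), with a median log2 difference of -0.46. Crmp1, a collapsin response mediator, read 8.68, 8.30 and 8.56 in yMSCs and 6.75, 6.64 and 5.75 in aMSCs (4.37-fold lower, limma adjusted p = 7.49e-06), and Uchl1, a neuronal ubiquitin hydrolase, fell by 1.23 (adjusted p = 0.00519). The epithelial list had 2 genes higher and 3 lower of 8 (62.5%). The plakophilin gene Pkp1 rose by 1.58 (9.23, 8.58 and 8.54 against 10.49, 10.62 and 9.99, adjusted p = 0.000328) and Jup, plakoglobin, fell by 1.52 (9.35, 8.40 and 8.35 against 7.31, 7.42 and 6.80, adjusted p = 0.0041), so that partners of the same junctions were called in opposite directions. Of 35 detected focal adhesion and actin regulator genes 3 were called higher and 5 lower (22.9%), near the share of all members. Of 9 detected integrin genes 2 were called higher and 1 lower (33.3%). Among links between actin and the membrane, Ezr, ezrin, rose by 2.43 (6.04, 5.89 and 5.59 against 8.17, 8.44 and 8.18, adjusted p = 1.90e-08). The fibronectin receptor chain Itga5 rose by 1.79 (adjusted p = 0.00138).

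Of 19 detected immediate early genes 6 were called higher and 2 lower (42.1%). Fosl1 rose by 1.14 (6.90, 7.95 and 7.75 against 8.51, 8.57 and 8.94, limma adjusted p = 0.00554) and its relative Fos fell by 1.23 (6.69, 7.48 and 6.97 against 5.90, 5.85 and 5.71, adjusted p = 0.000554). Of 27 developmental transcription factors 3 were called higher and 6 lower (33.3%). Tbx3 was at least 1.57-fold higher in aMSCs (6.09, 6.10 and 5.56, adjusted p = 6.47e-06) and Tbx18 fell by 2.17 (7.51, 6.90 and 7.53 against 4.87, 4.37 and 6.19, adjusted p = 0.00028). Of 29 lysosomal genes 4 were called higher and 1 lower (17.2%, below the share of all members), with Ctsh, cathepsin H, up by 1.17 (adjusted p = 0.000199) and Smpdl3a, a phosphodiesterase, down at -1.99 (adjusted p = 9.58e-06). Of 14 detected p53 target genes 2 were called higher and 4 lower (42.9%), of which 1 higher and 3 lower held on all 3 arrays. The p53 target gene Aen, called higher, read 9.67, 9.66 and 9.75 in yMSCs and 10.37, 10.35 and 10.38 in aMSCs (0.67, adjusted p = 0.000562).

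Over the 9531 tested genes, yMSCs P30 replicate 1 correlated at r = 0.954 with aMSCs P100 replicate 2, while yMSCs P30 replicates 2 and 3 correlated with that array at 0.929 and 0.930. With aMSCs P100 replicate 3 the order was the other way, at 0.929 for replicate 1 and 0.954 and 0.953 for replicates 2 and 3.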
